A study of Rattus norvegicus with 47 samples.

Results

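Genes that make, carry and export cholesterol were followed in the blood of rats over the first day after a stroke. The list held 30 genes, and 28 of them had a probe set among the 27596 on the array. They are enzymes of sterol synthesis (16 measured of 17 listed), regulators of the SREBP transcription factors (5 measured), the sterol carrier Stard4 and the fatty acid gene Acsl1, and liver X receptor (LXR) and efflux genes (5 measured). Each gene was found by its symbol in the annotation of the deposited table, and where a gene had several probe sets the one with the highest mean signal was taken. Only Acsl1 had more than 1. No symbol matched Mvk and Scd. The probe set of Acat2 also carries the symbol of a near-identical copy, Acat2l1, so its signal cannot be given to either gene alone.

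Stroke was induced in 8 male spontaneously hypertensive rats (SHR), 16 weeks old, by passing a thread into the middle cerebral artery (MCA occlusion, MCAo). The thread was withdrawn again between the 1 h and 2 h samples, under renewed anesthesia. Blood was taken from a tail vein before anesthesia (0 h) and 1, 2, 3 and 6 h post MCA occlusion, and from the heart at 24 h, after an overdose of anesthetic. Each time point had 8 arrays except 6 h, which had 7 because rat 3 gave no sample then, so 47 arrays were run in all. All rats had MCAo, and there was no sham-operated group. Occlusion, surgery, anesthesia, repeated bleeding and time of day therefore cannot be told apart at any time point, nor can the 24 h time point be told apart from the heart as sampling site.

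Sterol synthesis runs from acetyl-CoA through mevalonate to squalene, and from squalene through lanosterol to cholesterol. Its genes are switched on together by the SREBP factors, which Scap escorts from the endoplasmic reticulum when sterols are scarce and which Insig proteins hold back when sterols are plentiful. Insig1 is itself an SREBP target. LXR receptors respond to oxidised sterols and switch on the exporters Abca1 and Abcg1. In leukocytes both systems shift during activation, and sterol synthesis is known to rise when lymphocytes prepare to divide.

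Promoter windows from RefSeq (build GRCr8, 300 bases each, 250 before to 50 after the start site) are shown for 3 genes that were lower at all 5 later time points and for Mvd, a synthesis gene that did not pass the test at any time. Capitals mark matches to the SREBP site TCACNCCAC with up to 1 changed base and to the NF-Y box CCAAT, on either strand.
Insig1, chr4:8057720-8058019, minus strand: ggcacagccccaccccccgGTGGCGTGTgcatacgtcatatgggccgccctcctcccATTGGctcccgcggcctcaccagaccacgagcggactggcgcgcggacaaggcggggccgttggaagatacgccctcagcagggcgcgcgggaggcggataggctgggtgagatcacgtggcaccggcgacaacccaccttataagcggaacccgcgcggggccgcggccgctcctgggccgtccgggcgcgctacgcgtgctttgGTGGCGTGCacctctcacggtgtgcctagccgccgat
Msmo1, chr16:29746863-29747162, plus strand: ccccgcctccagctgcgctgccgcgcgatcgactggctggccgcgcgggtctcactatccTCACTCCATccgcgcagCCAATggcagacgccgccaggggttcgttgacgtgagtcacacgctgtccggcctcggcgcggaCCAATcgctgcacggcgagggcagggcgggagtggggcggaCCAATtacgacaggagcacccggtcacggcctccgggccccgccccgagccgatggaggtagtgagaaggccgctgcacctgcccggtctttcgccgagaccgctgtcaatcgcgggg
Ebp, chrX:16971212-16971511, plus strand: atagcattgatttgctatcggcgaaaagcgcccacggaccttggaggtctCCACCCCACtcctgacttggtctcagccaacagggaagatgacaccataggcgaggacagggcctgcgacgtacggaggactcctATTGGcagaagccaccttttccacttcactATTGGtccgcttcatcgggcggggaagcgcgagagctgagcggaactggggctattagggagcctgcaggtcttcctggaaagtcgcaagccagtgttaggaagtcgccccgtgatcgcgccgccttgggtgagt
Mvd, chr19:67414925-67415224, minus strand: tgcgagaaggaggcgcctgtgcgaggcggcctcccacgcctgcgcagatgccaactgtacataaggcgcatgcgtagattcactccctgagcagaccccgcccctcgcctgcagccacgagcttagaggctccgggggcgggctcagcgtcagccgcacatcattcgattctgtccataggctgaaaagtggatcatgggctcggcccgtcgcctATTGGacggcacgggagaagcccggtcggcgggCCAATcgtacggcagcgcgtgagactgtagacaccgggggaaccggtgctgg

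Windows were found for 25 of the 30 listed genes, 26 windows in all since Srebf1 has 2, and none for Pmvk, Fdft1, Sqle, Stard4 and Abcg1. The exact SREBP site TCACNCCAC was in 0 of the 26 windows and in 1.12% of all 33469 windows in the RefSeq table. Nor did any of the 26 hold the E-box-like SREBP site TCACNTGA (3.93% of all windows) or a direct repeat of AGGTCA with a gap of 4 bases and up to 2 changed bases, as LXR prefers (2.93%). Repeats with more changed bases were not searched for, so weaker LXR sites in these windows could have been missed. The looser SREBP search, added once the exact one had found nothing, matched 11 of the 26 windows, against 23.7% of all windows. The NF-Y box CCAAT was in 18 of the 26, against 37.5%, and the Sp1 box GGGCGG was in 19, against 33.1%. In the Insig1 window the loose SREBP matches began at positions -231 and 14 and an NF-Y box at -193, counted from the start site (negative before it). Msmo1 held a loose SREBP match and 3 NF-Y boxes, and Ebp a loose match and 2 NF-Y boxes. The Mvd window held 2 NF-Y boxes and no SREBP match, but Fdps, also called at no time point, held 2 of each, and Hmgcs1 and Idi1, which fell, held 2 NF-Y boxes and no loose SREBP match. Of the 10 synthesis genes that were lower at 2 h, 8 had a window, and 7 of these held an NF-Y box and 5 a loose SREBP match. Of the 6 that were not called at 2 h, 5 had a window, 3 with an NF-Y box and 2 with a loose SREBP match. The Sp1 box was in 6 of those 8 genes and in 5 of those 5. These matches describe letters in a window and not bound sites.

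The signal is a log2 value from gene arrays, given by the authors as 1 mean and 1 SD per time point, and single arrays were not used. A change is a difference between means on that scale, so that -1 is a halving. Calls are adjusted p-values under 0.05 from limma's moderated test, adjusted by Benjamini-Hochberg over all 27596 probe sets. The samples of a rat were taken as independent, and levels of different genes are not compared, since probe sets differ in brightness. Over the 6 time points together, 22 of the 28 genes passed the F-test, beside 55.5% of all probe sets. At an unadjusted p under 5e-07, the threshold the study set on its own F-test of neighbouring time points, the count was 12 of 28, beside 13.5%. The F-test here was computed from the means and SDs over all 6 time points. Its p-values and order of genes differ from the study's, and the cause was not tested. The genes past that threshold are not all the same either. In the study's own F-test the Acsl1 and Idi1 probe sets missed it, whereas both passed it here. Among the 28 genes, the lowest p-values of limma's moderated F-test were those of Acsl1 (1.22e-14), Fdft1 (1.44e-14), Stard4 (2.98e-14), Insig1 (7.73e-14), Msmo1 (2.61e-13) and Cyp51 (1.39e-11).

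At 1 h, 16 of the 28 genes were lower and 2 higher, beside 15.4% and 21.7% of all probe sets. At 2 h the counts were 15 lower and 3 higher (18.6% and 21.7% of all probe sets), and at 3 h they were 14 and 2 (19.2% and 27.3%). At 6 h, 12 were lower and 3 higher (19.3% and 22.5%). At 24 h, 14 were lower and 3 higher (13.9% and 17.4%). At all 5 later time points 11 genes were called, beside 15.2% of all probe sets, and 5 genes (Pmvk, Mvd, Fdps, Dhcr7 and Mylip) were called at none.

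**Figure D1:**
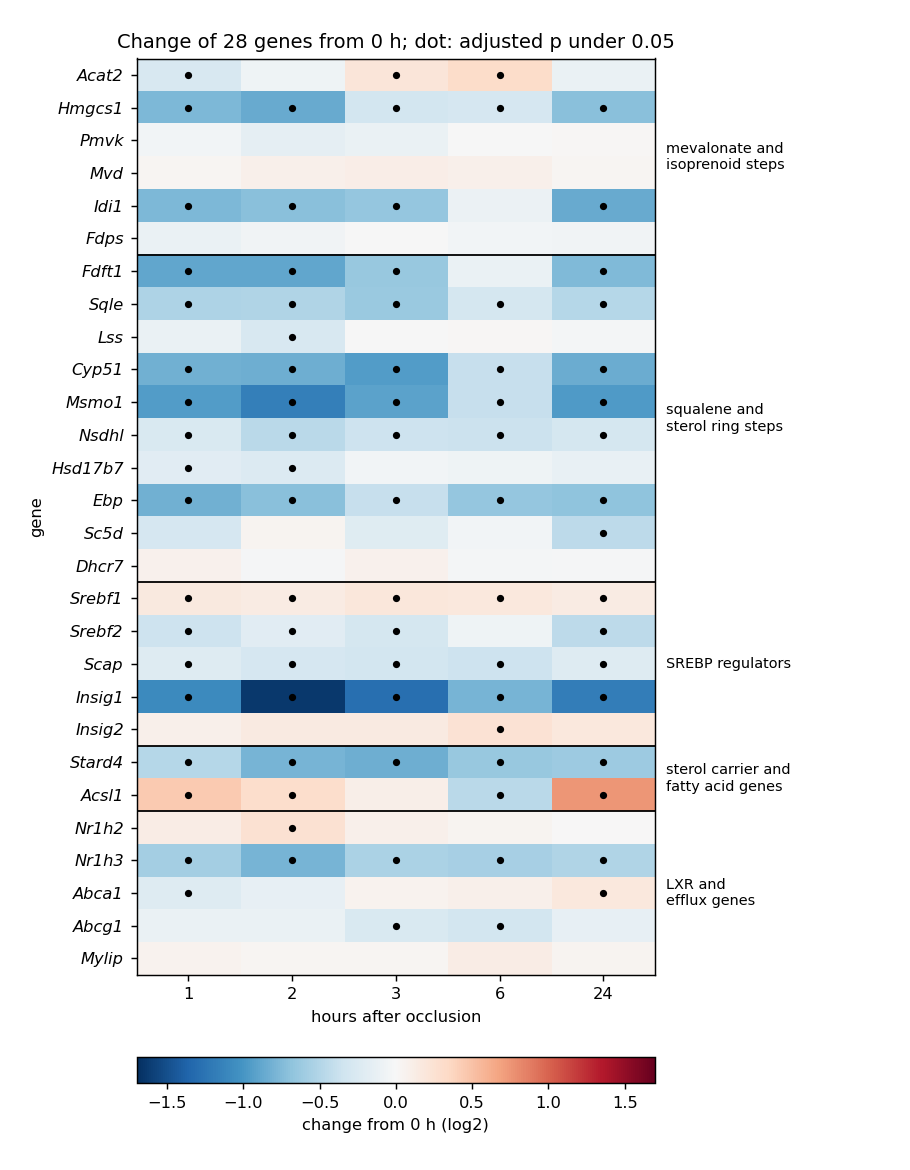
Change of each of the 28 genes from 0 h (log2, colour) at 1, 2, 3, 6 and 24 h (columns), in blocks by role; a dot marks an adjusted p under 0.05. The darkest blue is in Insig1 and in Msmo1, Cyp51, Fdft1, Hmgcs1, Idi1, Ebp, Stard4 and Nr1h3. Synthesis genes such as Pmvk, Mvd, Fdps and Dhcr7 are near white. The blue is paler at 6 h in Idi1, Fdft1, Cyp51 and Msmo1.

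The first enzymes of the pathway did not move as 1 block. Hmgcs1, the HMG-CoA synthase, had authors' mean log2 signals of 8.60 ± 0.15 (SD), 7.83 ± 0.27, 7.74 ± 0.18, 8.29 ± 0.23, 8.32 ± 0.12 and 7.90 ± 0.34 at 0, 1, 2, 3, 6 and 24 h. The 1 h, 2 h and 24 h means lay low, by several SDs of the 0 h samples, while 3 h and 6 h lay between. Hmgcs1 fell by 0.86 at 2 h (95% confidence interval -1.08 to -0.64, adjusted p = 1.3e-08), to 55.1% of its 0 h signal, and by 0.71 at 24 h (adjusted p = 3.7e-06). Idi1, which isomerises the isoprenoid building block, went from 5.86 ± 0.35 at 0 h to 5.10 ± 0.28, 5.15 ± 0.27 and 5.20 ± 0.34 at 1, 2 and 3 h, then 5.75 ± 0.31 at 6 h and 5.00 ± 0.22 at 24 h. Its 6 h mean was thus close to 0 h, with a change of -0.10 (95% confidence interval -0.40 to 0.19, adjusted p = 0.60), whereas at 24 h it fell by 0.85 (adjusted p = 1.0e-05). Its probe set is among the dimmest 25% on the array and is annotated over 47758 bases of rn5, against a gene length of 7764 bases in GRCr8, so which transcript it reads is uncertain.

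Acat2, a thiolase that condenses acetyl-CoA, changed in both directions. Its mean log2 signal was 7.46 ± 0.14, 7.19 ± 0.18, 7.39 ± 0.12, 7.66 ± 0.20, 7.77 ± 0.14 and 7.35 ± 0.09 at 0, 1, 2, 3, 6 and 24 h. It fell by 0.27 at 1 h (adjusted p = 0.0037) and rose by 0.31 at 6 h (adjusted p = 0.0014). A rise of 0.20 at 3 h (adjusted p = 0.023) was no longer called once each time point was centred on its median (0.17, adjusted p = 0.072). The other measured mevalonate enzymes were not called at any time point: changes ranged from -0.16 to 0.02 for Pmvk, from 0.03 to 0.11 for Mvd and from -0.12 to -0.01 for Fdps.

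Of the 10 genes of the steps from squalene onward, 7, 8, 6, 5 and 7 were called lower at 1, 2, 3, 6 and 24 h and 0 higher. Fdft1, the squalene synthase, had mean log2 signals of 8.56 ± 0.20, 7.68 ± 0.20, 7.67 ± 0.16, 7.92 ± 0.25, 8.45 ± 0.13 and 7.81 ± 0.18 at 0, 1, 2, 3, 6 and 24 h. It was low at every time point but 6 h, falling by 0.88 at 1 h (adjusted p = 2.9e-10) and by 0.75 at 24 h (adjusted p = 3.0e-08), with a change of -0.11 at 6 h (adjusted p = 0.38). Sqle, the squalene epoxidase, had mean log2 signals of 7.41 ± 0.20, 6.89 ± 0.19, 6.91 ± 0.23, 6.78 ± 0.15, 7.11 ± 0.21 and 6.93 ± 0.18 at 0, 1, 2, 3, 6 and 24 h. It was lowest at 3 h, where it fell by 0.63 (adjusted p = 4.1e-07). Lss, which closes the ring to lanosterol, was called at 2 h only, with a fall of 0.27 (adjusted p = 4.7e-04).

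The largest falls among the enzymes were in the removal of methyl groups from lanosterol. Msmo1, the methylsterol monooxygenase, had mean log2 signals of 7.99 ± 0.31, 7.04 ± 0.21, 6.83 ± 0.25, 7.08 ± 0.17, 7.60 ± 0.12 and 7.03 ± 0.30 at 0, 1, 2, 3, 6 and 24 h. It fell by 1.16 at 2 h (95% confidence interval -1.39 to -0.93, adjusted p = 9.7e-12), to 44.7% of its 0 h signal, and it was below 0 h at every later time point. Cyp51, the lanosterol demethylase, had mean log2 signals of 8.52 ± 0.19, 7.70 ± 0.25, 7.69 ± 0.19, 7.57 ± 0.26, 8.13 ± 0.25 and 7.68 ± 0.19 at 0, 1, 2, 3, 6 and 24 h. Its largest fall was 0.95 at 3 h (adjusted p = 6.0e-10), to 51.9% of 0 h, and 6 h lay between the other later time points and 0 h. Nsdhl, the dehydrogenase of the same demethylation, was called lower at all 5 time points by smaller amounts, 0.46 at 2 h (adjusted p = 3.8e-04) and 0.26 at 1 h (adjusted p = 0.044). The Nsdhl probe set is annotated on chromosome 1 of rn5, whereas the gene is on X in GRCr8, and was not checked against sequence. Hsd17b7, the reductase of that demethylation, fell by 0.20 at 1 h and 0.23 at 2 h (adjusted p = 0.036 and 0.012). It was not called later. With the variance of those time points only, the 1 h fall of Hsd17b7 was not called (adjusted p = 0.0704).

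Ebp, the sterol isomerase that follows, was lower at 6 h as well. Its mean log2 signals were 8.13 ± 0.26, 7.32 ± 0.28, 7.43 ± 0.19, 7.75 ± 0.19, 7.47 ± 0.07 and 7.45 ± 0.24 at 0, 1, 2, 3, 6 and 24 h. It fell by 0.82 at 1 h (adjusted p = 4.8e-08), and at 6 h it was still lower by 0.66, the change there being -0.66 (95% confidence interval -0.88 to -0.44, adjusted p = 3.2e-06). Sc5d, a sterol desaturase, was called only at 24 h, with a fall of 0.44 (adjusted p = 0.014). Dhcr7, which catalyses a last step to cholesterol, was called at no time point, and its changes ranged from -0.03 to 0.08. In all, 6 of the 16 measured synthesis genes (Hmgcs1, Sqle, Cyp51, Msmo1, Nsdhl and Ebp) were lower at all 5 later time points, beside 8.43% of all probe sets.

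At 6 h the calls of the smaller falls depended on the scaling. When the 6 columns of means were quantile normalized, Hmgcs1, Sqle, Cyp51 and Msmo1 were no longer called at 6 h (changes of -0.18, -0.23, -0.26 and -0.27 in place of -0.28, -0.30, -0.39 and -0.39, adjusted p = 0.248, 0.0665, 0.0601 and 0.0669), nor Hmgcs1 at 3 h (-0.20, adjusted p = 0.151), while their falls at 1, 2 and 24 h were still called. Nsdhl then lost its calls at 1 and 24 h (changes of -0.19 and -0.23, adjusted p = 0.174 and 0.106), so that of the 6 genes Ebp alone was lower throughout under that scaling.

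**Figure D2:**
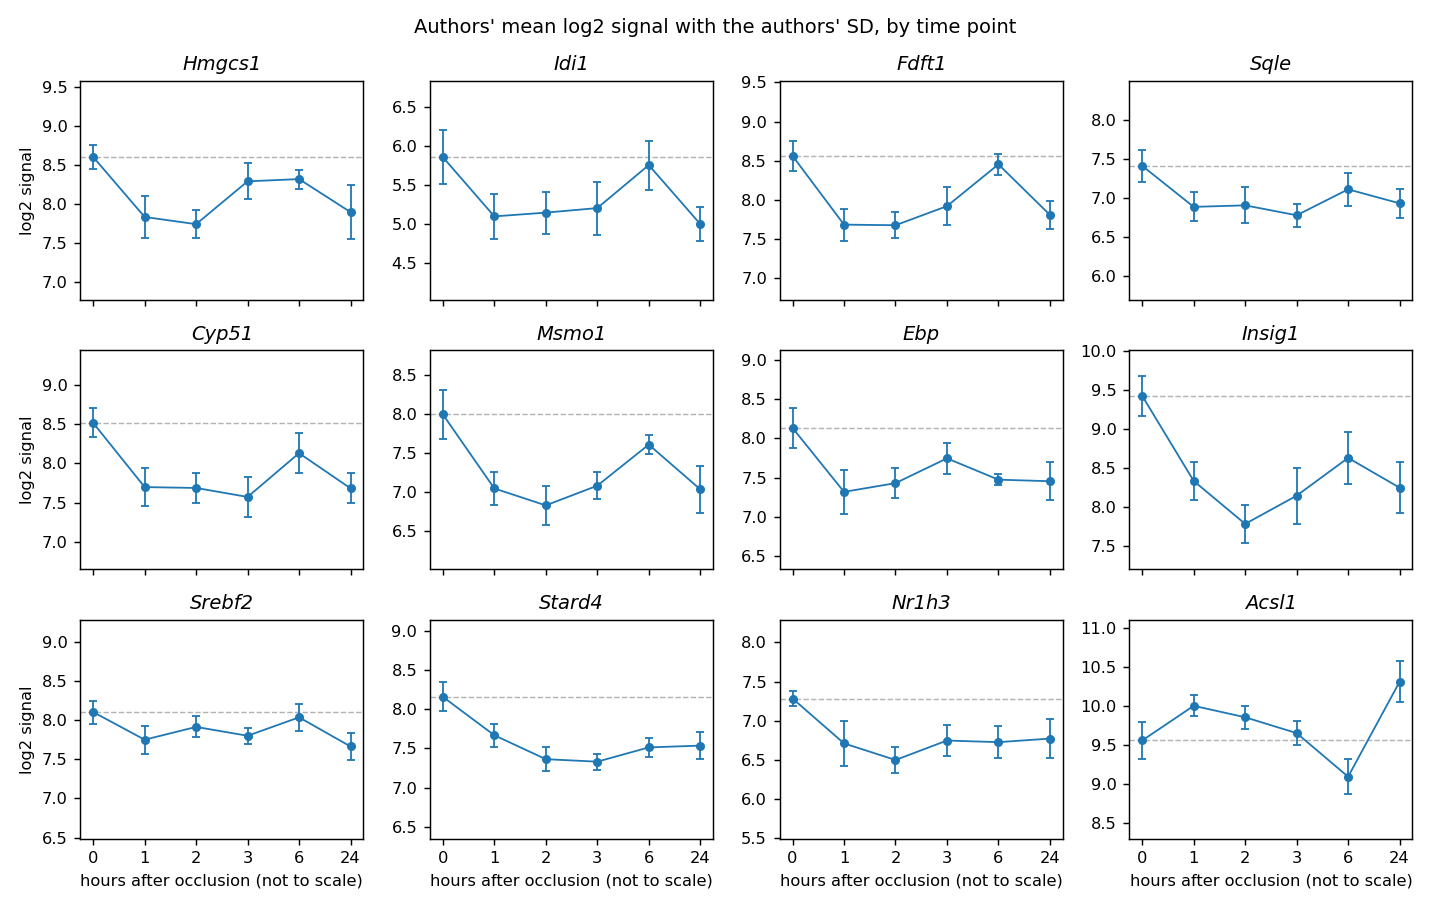
Authors' mean log2 signal (vertical axis, the same span in each panel) of 12 genes at 0, 1, 2, 3, 6 and 24 h after occlusion, with bars for the authors' SD over 8 arrays (7 at 6 h) and a dashed line at the 0 h mean. Fdft1 and Idi1 return to the line at 6 h and leave it at 24 h, Stard4 and Nr1h3 stay below it, and Acsl1 crosses it.

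Among the SREBP regulators, Insig1, the sterol-sensing brake and SREBP target, had the largest fall of all 28 genes. Its mean log2 signals were 9.42 ± 0.25, 8.34 ± 0.24, 7.79 ± 0.24, 8.15 ± 0.36, 8.63 ± 0.34 and 8.25 ± 0.33 at 0, 1, 2, 3, 6 and 24 h. At 2 h it fell by 1.64 (95% confidence interval -1.92 to -1.35, adjusted p = 1.9e-13), to 32.2% of its 0 h signal, and at 24 h it was at 44.3%. Every later mean lay more than 2 SDs of the 0 h samples below the 0 h mean. Insig2, its paralog, was called only at 6 h, where it rose by 0.25 (adjusted p = 0.024), and its other changes were between 0.09 and 0.18.

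Srebf2, the SREBP gene most tied to sterol synthesis, had mean log2 signals of 8.10 ± 0.15, 7.75 ± 0.18, 7.91 ± 0.13, 7.80 ± 0.10, 8.04 ± 0.17 and 7.66 ± 0.18 at 0, 1, 2, 3, 6 and 24 h. It was lowest at 24 h, where it fell by 0.44 (adjusted p = 2.1e-05), and near 0 h at 6 h, where the change was -0.07 (adjusted p = 0.52). The fall of 0.19 at 2 h (adjusted p = 0.043) was lost under quantile normalization (adjusted p = 0.562). Scap, the SREBP escort, was lower at all 5 time points by 0.22 to 0.35, with its lowest mean at 6 h (adjusted p = 1.6e-06). Srebf1, the SREBP gene more tied to fatty acid synthesis, was called higher at all 5 time points, by 0.13 to 0.20. Centring each time point on its median ended its calls at 1, 2 and 24 h (adjusted p = 0.0742, 0.105 and 0.155). Its probe set is annotated over 589529 bases of rn5, against a gene length of 22013 bases in GRCr8, so which transcript it reads is uncertain.

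Stard4, which carries sterols through the cytosol and is a known SREBP target, was lower throughout. Its mean log2 signals were 8.16 ± 0.19, 7.67 ± 0.14, 7.36 ± 0.15, 7.33 ± 0.10, 7.51 ± 0.12 and 7.54 ± 0.17 at 0, 1, 2, 3, 6 and 24 h. The fall reached 0.83 at 3 h (adjusted p = 6.8e-13), to 56.3% of 0 h, and was still 0.65 at 6 h (adjusted p = 1.8e-09). Its probe set is annotated over 71187 bases of rn5, against a gene length of 15342 bases in GRCr8, and was not checked against sequence.

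Acsl1, which activates long-chain fatty acids, was called in both directions. Its mean log2 signals were 9.56 ± 0.23, 10.00 ± 0.13, 9.85 ± 0.14, 9.65 ± 0.16, 9.09 ± 0.22 and 10.31 ± 0.26 at 0, 1, 2, 3, 6 and 24 h. It rose by 0.44 at 1 h (adjusted p = 3.4e-04), fell by 0.46 at 6 h (adjusted p = 1.9e-04) and rose by 0.75 at 24 h (adjusted p = 7.4e-08), to 168.1% of 0 h. The second Acsl1 probe set, with a lower mean, had another course. It rose by 0.38, 0.37, 0.34, 0.20 and 0.32 at 1, 2, 3, 6 and 24 h (adjusted p from 1.93e-06 to 0.0102), so it was higher at 6 h, where the first fell, and its 24 h rise was smaller than 0.75.

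The LXR and efflux genes were mixed. Nr1h3, which encodes LXR alpha, had mean log2 signals of 7.28 ± 0.09, 6.71 ± 0.29, 6.50 ± 0.17, 6.75 ± 0.20, 6.73 ± 0.20 and 6.77 ± 0.25 at 0, 1, 2, 3, 6 and 24 h. It was lower at every later time point, by 0.79 at 2 h (adjusted p = 1.3e-08) and by 0.51 at 24 h (adjusted p = 1.4e-04), and its means at 3, 6 and 24 h lay close together. Nr1h2, which encodes LXR beta, was called only at 2 h, with a rise of 0.26 (adjusted p = 3.8e-04).

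Abca1, the exporter that loads nascent lipoprotein particles, had mean log2 signals of 6.96 ± 0.15, 6.74 ± 0.05, 6.82 ± 0.12, 7.02 ± 0.16, 7.05 ± 0.15 and 7.13 ± 0.13 at 0, 1, 2, 3, 6 and 24 h. It fell by 0.22 at 1 h (adjusted p = 0.0092) and rose by 0.17 at 24 h (adjusted p = 0.040), a rise that was not called after centring on the median (adjusted p = 0.135), quantile normalization (0.0808) or with the variance of those time points only (0.0708). The exporter Abcg1 had mean log2 signals of 7.83 ± 0.10, 7.73 ± 0.13, 7.72 ± 0.16, 7.57 ± 0.17, 7.52 ± 0.08 and 7.69 ± 0.18 and fell later, by 0.27 at 3 h (adjusted p = 0.0022) and 0.31 at 6 h (adjusted p = 6.5e-04). Mylip, an LXR-induced ubiquitin ligase that lowers lipoprotein uptake, was called at no time point, with changes from 0.03 to 0.12. Its probe set too is annotated over a longer stretch (207858 bases) than the gene (21665 bases).

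Set side by side, the synthesis genes had 10, 10, 8, 6 and 9 of 16 lower at 1, 2, 3, 6 and 24 h, and 0, 0, 1, 1 and 0 higher. The 5 LXR and efflux genes had 2, 1, 2, 2 and 1 lower and 0, 1, 0, 0 and 1 higher. Over all probe sets 15.4%, 18.6%, 19.2%, 19.3% and 13.9% were lower and 21.7%, 21.7%, 27.3%, 22.5% and 17.4% higher, and 1 of 5 genes is near these shares. The median change of the synthesis genes was -0.28, -0.36, -0.26, -0.09 and -0.37, that of the efflux genes -0.11, -0.12, 0.03, 0.05 and 0.01, and that of all probe sets 0.05, 0.05, 0.07, 0.05 and 0.04. For the efflux genes the mean over genes has the other sign at 3, 6 and 24 h (-0.13, -0.12 and -0.08). The difference between the synthesis and efflux lists was not tested.

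**Figure D3:**
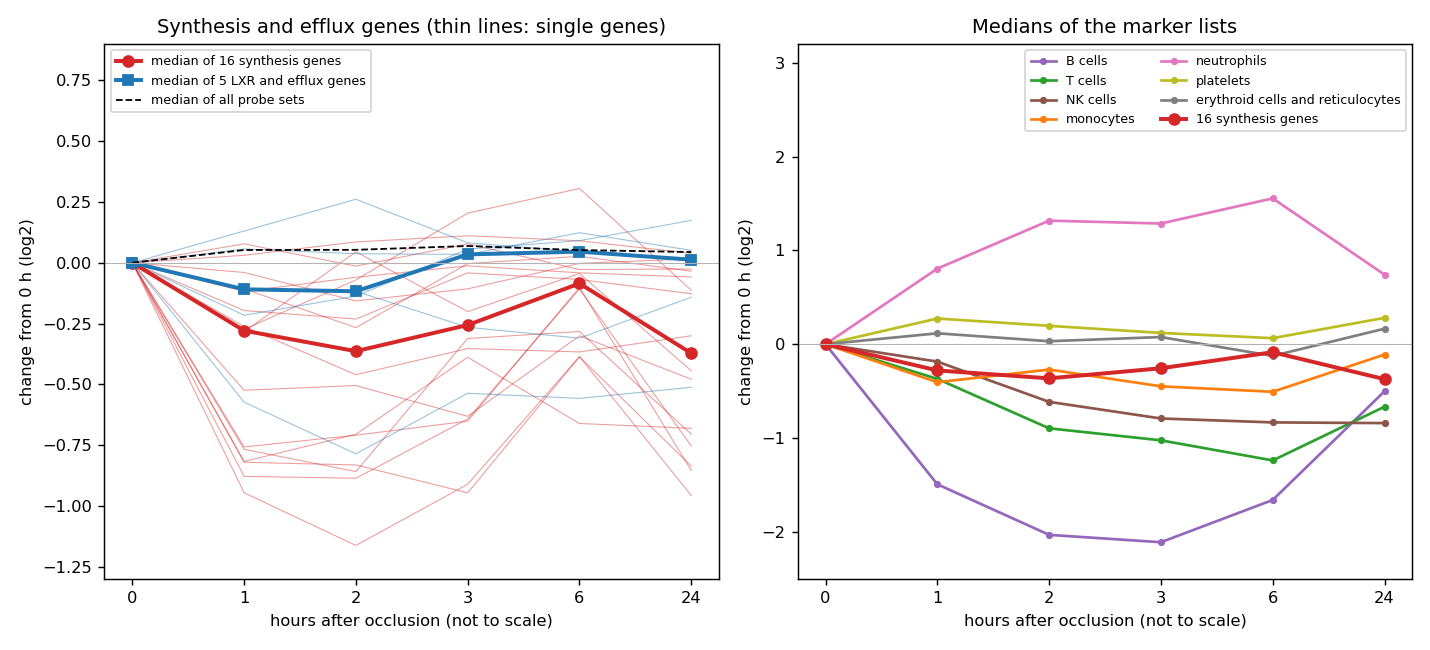
Left, change from 0 h (log2) of the 16 synthesis genes (thin red) and the 5 LXR and efflux genes (thin blue), with the median of each list (thick) and of all 27596 probe sets (dashed). Right, medians of 7 blood cell marker lists beside the synthesis genes. The synthesis median is nearest 0 at 6 h (-0.09). The T cell, neutrophil and monocyte medians are farthest from 0 at 6 h. The B cell median is farthest from 0 at 3 h, and the NK cell and erythroid medians at 24 h. The platelet median is nearest 0 at 6 h.

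The steps between neighbouring time points showed when the genes turned. From 1 h to 2 h, Insig1 fell by a further 0.55 (adjusted p = 0.00759) and Stard4 by 0.31 (adjusted p = 0.00467), 2 of the 28 genes lower and 0 higher, beside 4.11% and 4.66% of all probe sets. From 2 h to 3 h, Hmgcs1 rose by 0.55 (adjusted p = 0.00122), Acat2 by 0.27 (0.0266) and Lss by 0.26 (0.00703), 3 of 28 higher beside 1.9%, and 0 were lower beside 1.62%. Hmgcs1 was the only one of these 3 still called when the variance came from those time points alone.

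From 3 h to 6 h, 6 of the 28 genes rose, beside 2.34% of all probe sets. They were Cyp51 (0.56, adjusted p = 0.00108), Idi1 (0.55, 0.0188), Fdft1 (0.53, 2.76e-04), Msmo1 (0.53, 0.00423), Insig1 (0.48, 0.0421) and Sqle (0.33, 0.0372). With the variance of those time points only, Idi1, Sqle and Insig1 were not called (adjusted p = 0.0514, 0.0535 and 0.115), nor was Insig1 without moderation (0.0603). Acsl1 fell by 0.56 (adjusted p = 2.51e-04), 1 of 28 beside 2.44%, whereas its second probe set changed by -0.14 (adjusted p = 0.207). Hmgcs1, which had already risen, changed by 0.03 in this step (95% confidence interval -0.20 to 0.26).

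From 6 h to 24 h, 8 of the 28 genes fell, beside 8.68% of all probe sets: Idi1 by 0.75 (adjusted p = 1.11e-04), Fdft1 by 0.65 (9.58e-07), Msmo1 by 0.57 (2.56e-04), Cyp51 by 0.45 (0.00224), Hmgcs1 by 0.42 (0.00548), Acat2 by 0.42 (5.11e-05), Sc5d by 0.40 (0.0453) and Srebf2 by 0.37 (3.64e-04). Sc5d was not called without moderation (adjusted p = 0.0612) or with the variance of those time points only (0.0681). Acsl1 rose by 1.21 (95% confidence interval 1.01 to 1.41, adjusted p = 2.0e-13), the only one of 28 to rise, beside 10.2%. In the second Acsl1 probe set the change over this step was 0.12 (adjusted p = 0.176). The step also changes the sampling site from tail vein to heart.

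Idi1, Fdft1, Cyp51 and Msmo1 shared the whole course: lower at 2 h, higher again from 3 h to 6 h and lower from 6 h to 24 h, with each part called. Over the whole array 61 of 27596 probe sets (0.221%) met the same conditions, which were set after these genes' values had been seen.

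**Figure D4:**
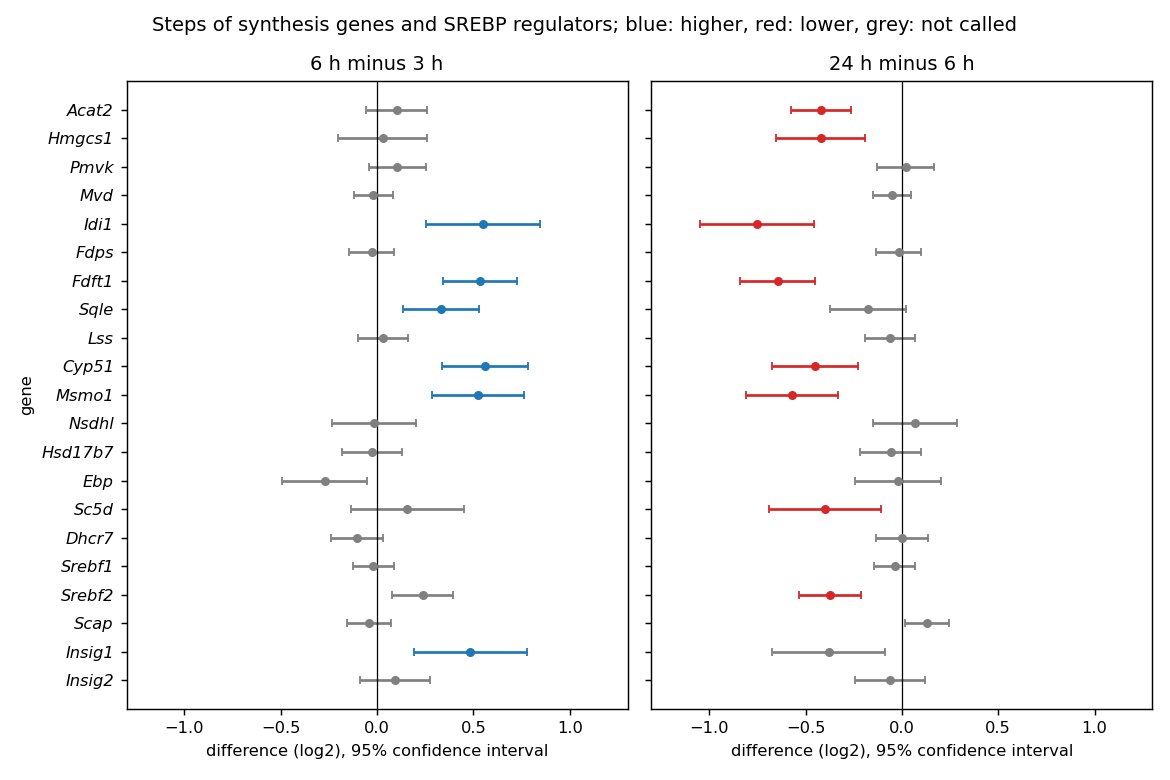
Difference between means (log2, horizontal axis) with its unadjusted 95% confidence interval for the 16 synthesis genes and 5 SREBP regulators (rows), 6 h minus 3 h on the left and 24 h minus 6 h on the right; blue is called higher, red called lower, grey not called. Idi1, Fdft1, Cyp51 and Msmo1 lie to the right in the first panel and to the left in the second, while Ebp and Nsdhl are called in neither.

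Further genes of the same pathways were taken as lists beside the members. Of 13 measured genes of sterol synthesis and SREBP processing (14 listed), 2, 4, 5, 7 and 4 were lower and 2, 2, 2, 2 and 1 higher at 1, 2, 3, 6 and 24 h. Beside the shares of all probe sets given above, 2 of 13 lower at 1 h is near the 15.4%. Tmem97, a sterol-responsive membrane protein, fell at every time point, by 0.60, 0.84, 0.66, 0.70 and 0.73 (adjusted p from 3.56e-10 to 2.13e-06). Soat1, which esterifies cholesterol for storage, rose instead, by 0.92, 1.31, 1.14 and 1.02 at 1, 2, 3 and 6 h (adjusted p = 2.22e-14 at 2 h), and at 24 h the change was 0.12 (adjusted p = 0.42). Lbr, a sterol reductase that also anchors the nuclear lamina, rose by 0.30, 0.61, 0.81, 1.28 and 0.38 (adjusted p = 2.35e-16 at 6 h).

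Of 15 LXR and cholesterol export genes, 3, 3, 3, 3 and 2 were lower and 5, 4, 5, 4 and 1 higher, the counts lower being near those shares. Rxra, the partner of LXR, rose by 0.47, 1.02 and 0.60 at 1, 2 and 3 h (adjusted p = 2.18e-15 at 2 h), with changes of 0.16 and -0.09 at 6 and 24 h that were not called. Lipa, the lysosomal acid lipase that frees cholesterol from its esters, fell by 0.85, 1.38, 1.20, 0.93 and 0.64 (adjusted p = 6.13e-14 at 2 h). Abca7, a lipid transporter, rose by 0.24 to 0.47 at all 5 time points (adjusted p = 3.0e-10 at 2 h).

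Of 13 measured genes of fatty acid synthesis and activation (15 listed), 4, 5, 5, 5 and 2 were lower and 4, 3, 2, 4 and 3 higher. Against the same shares, the counts higher at 2 h and lower at 24 h are near those of all probe sets. Acaca, the acetyl-CoA carboxylase, fell by 0.44, 0.83, 0.62, 0.70 and 0.45 (adjusted p = 2.0e-12 at 2 h). Acsl3 and Acsl4 activate long-chain fatty acids as Acsl1 does. Acsl3 fell by 1.23, 1.39, 1.23, 1.35 and 0.71 (adjusted p = 2.09e-12 at 2 h), and Acsl4 rose by 0.47, 0.91, 0.82 and 0.79 at 1, 2, 3 and 6 h (adjusted p = 1.02e-11 at 2 h), with 0.02 at 24 h.

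Marker lists of blood cell types were followed in the same table. The median 0 h mean log2 signal was 10.1 for the B cell list, 10.2 for T cells, 9.90 for NK cells, 10.5 for neutrophils, 10.6 for monocytes, 11.3 for platelets and 11.9 for erythroid cells. At 1, 2, 3, 6 and 24 h the neutrophil list had a median change of 0.81, 1.32, 1.29, 1.55 and 0.74, with 7 of 8 markers higher and 1 lower each time. B cell markers had a median of -1.49, -2.03, -2.11, -1.66 and -0.50, with 6, 7, 6, 6 and 5 of 7 lower and 0 higher. T cell markers had -0.37, -0.90, -1.02, -1.24 and -0.67, with 6 of 7 lower at 1 h and 7 of 7 from 2 h on. NK cell markers had -0.19, -0.61, -0.79, -0.83 and -0.84, with 2, 4, 4, 5 and 5 of 6 lower and 1, 1, 0, 1 and 0 higher. Monocyte markers had -0.40, -0.27, -0.45, -0.51 and -0.11, with 4, 3, 4, 4 and 3 of 7 lower and 1, 3, 3, 3 and 0 higher. Platelet markers had 0.27, 0.20, 0.12, 0.06 and 0.28, with 3, 2, 1, 0 and 4 of 6 higher and 0 lower. Erythroid markers had 0.12, 0.03, 0.08, -0.12 and 0.17, with 3, 0, 1, 0 and 3 of 7 higher and 2 lower at 6 h only.

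In bulk blood, fewer cells of a type and less RNA per cell cannot be told apart, and the part of these shifts in the sterol genes was not tested. At 1, 2 and 3 h the median of the 16 synthesis genes was -0.28, -0.36 and -0.26. The T cell median was then -0.37, -0.90 and -1.02, and the B cell median -1.49, -2.03 and -2.11. At 6 h, beside a T cell median of -1.24 and a B cell median of -1.66, the median of the 16 synthesis genes was -0.09, with single genes from -0.66 (Ebp) to 0.31 (Acat2), and Insig1, Stard4 and Nr1h3 were at -0.79, -0.65 and -0.56. At 24 h, beside medians of -0.67 and -0.50, the synthesis median was -0.37, with single genes from -0.96 (Msmo1) to 0.04 (Mvd), and Insig1, Stard4 and Nr1h3 were at -1.17, -0.62 and -0.51.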

How the data were processed

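Blood mRNA was measured on Affymetrix RatGene 1.0 ST arrays from 47 samples, 1 array each. Whole blood was drawn into heparin, RNA was prepared from the cell pellet with a PAXgene kit in 6 randomised batches, and amplified cDNA was hybridised. Which sample was in which batch is not given in the sources used here. The authors summarised each array to log2 values per probe set by RMA, which corrects background, quantile normalizes and combines probes. The deposited table gives the authors' mean log2 signal and SD for each of the 6 time points, over 27596 probe sets annotated on rn5, 21406 of them with a gene symbol. It also holds the authors' fold changes, p-values, FDRs and F-tests, which were not used, and 47 columns of single arrays, not used because their names match no sample label.

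Groups follow the time point in the sample titles. From the means, SDs and array numbers, moderated tests with a common variance per probe set were computed in limma 3.58.1 (R 4.3.3), which for 1 mean per time point equals a linear model on the arrays. There were 41 residual degrees of freedom and 5.71 prior degrees of freedom, with a prior SD of 0.15. P-values were adjusted by Benjamini-Hochberg over all probe sets, at 0.05. The fit has no term for the rat: the study's limma models name none, and the deposited means and SDs hold no rat. The method was tested on simulated data. The number of arrays limits the precision of each mean, and signal over background was not assessed.

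The genes, role groups, marker lists and pathway lists were chosen with earlier results of these data known. Genes named by rule were those called at 2 or more time points or with the lowest F-test p of their role group. In each further pathway list, the 3 with the lowest F-test p were named. Lss, Sc5d, Insig2 and Nr1h2, each called at 1 time point, are given with that change. The others are named with their range. Promoter windows came from RefSeq (GRCr8) and were searched by exact letters, besides the stated changes. Alternatives were centring on the median, quantile normalization of the means, an intensity trend together with a robust prior, no moderation, leaving out the 24 h samples, variance from the compared time points only, leaving out the 25% dimmest probe sets, another probe set per gene, and means over genes. Plots were drawn in matplotlib 3.10.9 under Python 3.11.15.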

Additional observations from a re-analysis of the deposited data

Results flagged for a closer look

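In 3 genes the change from 0 h was called in opposite directions at different time points, and the difference between those time points was itself called (limma, adjusted over all 27596 probe sets). Acat2 was lower at 1 h and higher at 3 h, a difference of 0.48 (adjusted p = 5.9e-06), and higher at 6 h, a difference from 1 h of 0.58 (adjusted p = 9.57e-08); its probe set is shared with Acat2l1. The rise at 3 h from 0 h was not called after centring on the median (adjusted p = 0.0724). Abca1 was lower at 1 h and higher at 24 h, a difference of 0.39 (adjusted p = 4.44e-05), but its rise at 24 h was not called after centring (adjusted p = 0.135), quantile normalization (0.0808) or with the variance of those time points only (0.0708). Acsl1 at 6 h was lower than at 1 h by 0.91, the difference being -0.91 (adjusted p = 7.12e-10), and lower than at 2 h, the difference being -0.76 (adjusted p = 1.42e-07). From 6 h to 24 h Acsl1 rose by 1.21 (adjusted p = 2.0e-13). In the second Acsl1 probe set the signal at 6 h was higher than at 0 h, and its step from 6 h to 24 h was 0.12 (adjusted p = 0.176).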

How the results depend on the processing

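Across the alternatives run, the number of genes called against 0 h ranged from 16 to 19 at 1 h (18 as reported), 16 to 19 at 2 h (18), 15 to 17 at 3 h (16), 12 to 15 at 6 h (15) and 14 to 17 at 24 h (17), and the number passing the F-test from 19 to 22 (22). At an F-test p under 5e-07 it ranged from 10 to 14 (12). With the variance from the compared time points only, 1 gene was called in the step from 2 h to 3 h, against 3, and 4 in the step from 3 h to 6 h, against 7; the cause was not tested. The efflux genes' change at 3, 6 and 24 h, reported as medians of 0.03, 0.05 and 0.01, was -0.13, -0.12 and -0.08 as a mean over genes. With the dimmest 25% of probe sets left out, Idi1 had no value. The changes from 0 h of the 19 genes named by rule, which leave out Lss, Sc5d, Insig2 and Nr1h2, were compared under the alternatives. Of these values, 706 kept direction and call, 23 lost the call, 3 gained it and 3 uncalled values moved. Of 864 values for the steps of all 28 genes, 10 lost the call and 4 gained it, for Acat2 from 1 h to 2 h, Nr1h2 from 2 h to 3 h and Insig1 from 6 h to 24 h under quantile normalization (adjusted p = 0.0283, 0.0489 and 0.0494), and for Insig1 also without the dimmest probe sets (0.0495). Acsl1 at 6 h was 0.20 (adjusted p = 0.0102) with its second probe set, opposite to the reported fall; the cause was not tested. No paired analysis was possible because the names of the single-array columns, which give a sample number only, carry no rat or time point and were not matched to samples by their order, and leaving out single rats was not run for the same reason. Repeated samples of a rat were therefore treated as independent, and with 7 or 8 arrays a time point, genes such as Pmvk or Mvd that missed the threshold are not shown to be constant.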
